A study of Mus musculus with 2 samples.

Results

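Among the genes measured in 2 clones of mouse mesoangioblasts, 6 that act on cellular fat are described here, namely Lpin3, Plin4, Plin5, Ppargc1b, Fads2 and Osbpl6. Mesoangioblasts are mesodermal progenitors associated with blood vessels. All probe sets annotated to a single gene of these 6 were taken, which gave 10 of the 11868 probe sets on the array and 6 of the 5928 genes. The genes were chosen by their log2 ratios in this same contrast, so their differences are descriptions and nothing is tested on them. Both clones, D16 and D351, came from dorsal aorta explants of C57BL6 mouse embryos at embryonic day 9.5, were cloned at limiting dilution over mitomycin-treated embryonic fibroblasts and were then grown on gelatin. The labels name no engineered allele and no treatment of the clones themselves, and each is 1 clone, so a difference between them is a difference between 2 clones. Total RNA of each clone was measured on 1 array, the C array of the Affymetrix U74 mouse set, and no difference below has a replicate check.

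Cells keep spare fatty acids as triglyceride in lipid droplets, whose surface is coated by perilipins. Lipins remove the phosphate from phosphatidic acid and so supply the diacylglycerol from which triglyceride is made. Fatty acids are lengthened and desaturated at the endoplasmic reticulum, where lipid transfer proteins of the oxysterol-binding family also work, and coactivators of the PGC-1 family raise the expression of genes that burn or make fat.

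The 6 genes fell on opposite sides of the comparison. Lpin3, Plin4 and Plin5 gave the higher intensity in D351, at least 17.6-fold, 2.44-fold and at least 2.25-fold. Ppargc1b, Fads2 and Osbpl6 gave the higher intensity in D16, by 3.26-fold, 2.72-fold and 3.83-fold. An intensity is the deposited value of a probe set, in arbitrary units. A value at or below 6.4, the median over both arrays, is called dim and was raised to 6.4 before a ratio was formed, so a ratio with 1 dim clone is a lower bound, written "at least". A gene was called measured where its brightest probe set was above 6.4 in at least 1 clone. All 6 genes were measured, Lpin3 and Plin5 through D351 alone. Of 3934 measured genes, 404 (10.3%) passed 2-fold towards D351 and 403 (10.2%) passed it towards D16. At 3-fold the shares were 4.58% and 3.56%, and Lpin3 passed towards D351 and Ppargc1b and Osbpl6 towards D16. That 3 of the 6 genes passed 2-fold in each direction follows from how they were chosen, and nothing is read from these counts against that background.

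The label under which the genes were grouped sets storage against synthesis, and their known roles fit it only in part. Plin4 and Plin5 are droplet coat proteins, but Lpin3 is an enzyme on the path to triglyceride. Of the genes higher in D16 only Fads2 is a biosynthetic enzyme, while Ppargc1b encodes a transcriptional coactivator and Osbpl6 a lipid transfer protein.

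Several features of the 2 arrays bear on every ratio. Both arrays had similar median intensities, 6.5 for D16 and 6.2 for D351. The 9 probe sets of the hybridization controls, bacterial and phage transcripts added in fixed amounts, had log2 ratios of D351 over D16 from -0.83 to -0.60 with a median of -0.67, which is 1.59-fold brighter in D16, and scaling the arrays to them adds 0.67 to a log2 ratio between values above the floor. That scaling moved the median log2 ratio of all measured genes from -0.022 to 0.59. It also moved the share of 2-fold genes that were higher in D351 from 50.1% to 87.5%. Directions are therefore relative to the deposited scale. The 19 control probe sets named DapX, LysX, PheX, ThrX, TrpnX or YEL were taken as negative controls. That assumes that no such transcript was added to the RNA. These probe sets reached 11.2 with a median of 1.9. Of their 38 values, 8 lay above the floor, so a gene called measured can still lie within their range. For Gapdh, the 3' control probe set over the 5' one, a sign of RNA quality, gave 1.39 in D16 and 1.22 in D351. For beta-actin the same ratio was 1.49 in D16 and 1.24 in D351. The part of RNA quality in the differences was not tested. Probe sets of the same gene differed in log2 ratio with an SD of 0.68 for a single probe set, taken over 409 genes that had a measured pair.

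**Figure D1:**
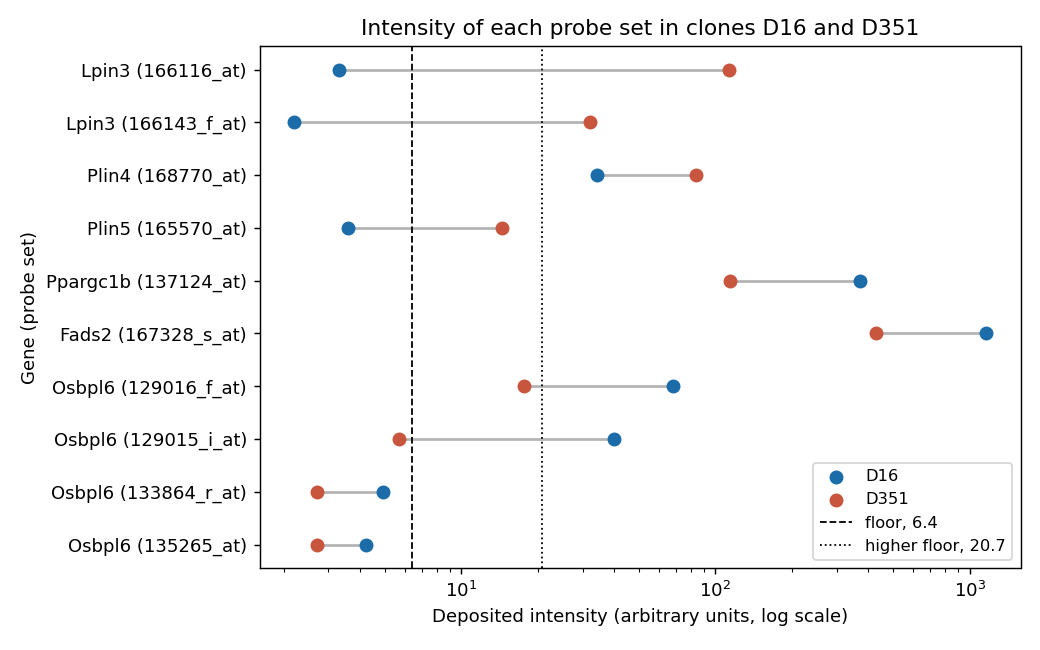
Deposited intensity (arbitrary units, log axis) of all 10 probe sets of the 6 genes, with 1 point per clone and a grey line joining the clones. The dashed line is the floor of 6.4 and the dotted line the higher floor of 20.7. Probe sets of Lpin3, Plin4 and Plin5 lie further right in D351, and those of Ppargc1b, Fads2 and Osbpl6 in D16, while 2 probe sets of Osbpl6 lie left of the floor in both clones.

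Lpin3, the lipin whose product dephosphorylates phosphatidic acid, showed the widest separation of the 6. Its brighter probe set, 166116_at, read 3.3 in D16 and 112.8 in D351. The D16 value lay under the floor and within the range of the negative controls, so Lpin3 was dim in D16 and clearly measured in D351. The log2 ratio was therefore a lower bound, 4.14, set by the floor. The second probe set, 166143_f_at, read 2.2 in D16 and 32.0 in D351, at least 5-fold higher in D351. Both probe sets thus gave the same order of the clones. The suffix f of the second marks probes that may also match related transcripts. The lower bound moved with the floor. It was 5.45-fold with a floor of 20.7, which is the 75th percentile of all values. Of the other lipins, Lpin1 was on the array and was dim in both clones, at 1.7 in D16 and 3.1 in D351.

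Plin4 and Plin5, the droplet coat proteins among the 6, are next to each other in the mouse genome, with no protein-coding gene between them in the RefSeq annotation of assembly GRCm38.p6. Plin4 coats the droplets of adipocytes. Plin5 coats those of oxidative tissues such as heart and brings droplets close to mitochondria. Plin4 read 34.3 in D16 and 83.6 in D351 by its only probe set, 168770_at. Both values lay above the higher floor of 20.7, so Plin4 was measured in each clone, with a log2 ratio of 1.29. Plin5 read 3.6 in D16 and 14.4 in D351 by its only probe set, 165570_at. Plin5 was thus dim in D16 and only a little above the highest negative control, 11.2, in D351. Its log2 ratio was at least 1.17, and at the higher floor of 20.7 neither clone was above it. Plin2, the perilipin of most cell types, was the other family member on the array and read 8.3 in D16 and 8.6 in D351 (log2 ratio 0.051), both within the range of the negative controls. No other neighbour was available for comparison, since Hdgfl2 and Lrg1, the protein-coding genes on either side of the pair, were not among the genes analysed here.

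The upstream sequences of Plin4 and Plin5 are shown because these neighbours lay on the same side of the contrast. Each is the 250 bases before the RefSeq start, 5′ to 3′ on the minus strand of GRCm38.p6, at chr17:56109783-56110032 for Plin4 and, for the more upstream of its 2 starts, at chr17:56117549-56117798 for Plin5. Capitals mark matches to any of 6 motifs searched on both strands: TATAA (TATA box), CCAAT (a general promoter box), CACGTG (E-box), TCACNCCAC (sterol regulatory element), AGGTCA (core of nuclear receptor elements) and GGGCGG (GC box). None of these motifs contains another.
Plin4: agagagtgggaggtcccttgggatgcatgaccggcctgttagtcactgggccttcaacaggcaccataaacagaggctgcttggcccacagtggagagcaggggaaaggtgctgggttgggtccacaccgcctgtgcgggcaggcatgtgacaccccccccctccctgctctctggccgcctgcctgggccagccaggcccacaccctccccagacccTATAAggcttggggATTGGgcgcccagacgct
Plin5: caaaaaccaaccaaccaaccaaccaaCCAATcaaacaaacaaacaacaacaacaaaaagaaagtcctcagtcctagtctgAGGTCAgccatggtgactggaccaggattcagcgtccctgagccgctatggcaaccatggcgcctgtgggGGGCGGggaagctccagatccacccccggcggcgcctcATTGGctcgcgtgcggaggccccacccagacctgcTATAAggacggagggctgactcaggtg
Both windows hold TATAA on the strand of the gene, its first base 32 bases before the start in Plin4 and 27 in Plin5. TATAA occurred on either strand in 22.8% of the 32851 windows of this length in the RefSeq table, and on the gene's strand from 40 to 20 bases before the start in 3.52%. This last window was chosen after the matches were seen. Both also hold CCAAT, which occurred in 33.8% of windows: Plin4 on the opposite strand, and Plin5 on each strand. Plin5 holds AGGTCA, found in 14.0% of windows, and GGGCGG, found in 32.7%. Of the 6 motifs, none matched the window before the more upstream of the 2 starts of Lpin3. These matches describe letters in a window and not sites in use.

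Ppargc1b, also known as PGC-1beta, is a coactivator of nuclear receptors that promotes mitochondrial biogenesis and, in liver, the synthesis of lipid. Its only probe set, 137124_at, read 371.1 in D16 and 113.8 in D351. Both values were far above the negative controls, and the log2 ratio was -1.71. With the arrays scaled to the hybridization controls the difference was 2.05-fold, still towards D16. Its paralogs were not among the genes analysed here. Of 7 measured genes on a list of PGC-1 partners and nuclear receptors, Ppargc1b alone was past 2-fold. The list had a median log2 ratio of -0.23, or -0.19 without Ppargc1b. Scaled to the hybridization controls, none of the 7 then measured besides Ppargc1b was past 2-fold, and their median was 0.53. Gabpb1, a subunit of the nuclear respiratory factor GABP, gave 560.5 in D16 and 477.6 in D351 with the brightest of its probe sets. Tfam, which maintains mitochondrial DNA, read 105.7 and 95.6. Both therefore stayed under 2-fold (log2 ratios -0.23 and -0.14), and a dimmer probe set of Gabpb1 gave 0.47. Gabpb1 was at 0.44 and Tfam at 0.53 with scaling to the hybridization controls. Esrrb and Esrrg, estrogen-related receptors and partners of the PGC-1 proteins, were dim in both clones.

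Fads2 encodes the desaturase that starts the conversion of essential fatty acids into long polyunsaturated ones. Its only probe set, 167328_s_at, read 1159.6 in D16 and 426.6 in D351. The gene was thus well measured in both clones, with a log2 ratio of -1.44. Its suffix s marks probes shared between transcripts. No unmarked probe set of Fads2 was on the array. Scaled to the hybridization controls, the log2 ratio was -0.77 and Fads2 was no longer past 2-fold. Fads3, a related desaturase and the neighbour of Fads2 in the genome, read 770.2 in D16 and 599.6 in D351, a log2 ratio of -0.36 that became 0.31 with that scaling. A second probe set of Fads3 was dim in both clones, as was Fads2b, at 0.7 in D16 and 0.5 in D351. The sequence upstream of Fads2 is shown beside those of the perilipins because Fads2 lay on the other side of the contrast; it is the 250 bases before the start on the minus strand, chr19:10101504-10101753, with the same motifs in capitals.
Fads2: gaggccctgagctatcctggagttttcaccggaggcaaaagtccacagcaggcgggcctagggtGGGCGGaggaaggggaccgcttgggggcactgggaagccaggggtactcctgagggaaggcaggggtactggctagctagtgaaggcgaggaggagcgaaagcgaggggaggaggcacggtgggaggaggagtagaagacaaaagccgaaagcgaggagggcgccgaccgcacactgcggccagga
It holds 1 match, GGGCGG, and the window holds no TATAA and no TCACNCCAC, the latter found in 1.05% of all windows.

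Osbpl6, a member of the oxysterol-binding protein family that moves sterols and other lipids between membranes, was represented by 4 probe sets. The brightest, 129016_f_at, read 67.8 in D16 and 17.7 in D351, a log2 ratio of -1.94. The next, 129015_i_at, read 39.9 in D16 and 5.7 in D351, at least 6.23-fold higher in D16. These probe sets gave the same order of the clones. The others, 133864_r_at and 135265_at, were dim in both, at 4.9 and 4.2 in D16 and 2.7 and 2.7 in D351. They neither bear out nor contradict that order, and 135265_at is the only probe set of Osbpl6 without a mark. With the floor at 20.7 Osbpl6 was at least 3.28-fold higher in D16. Its upstream window, not shown, held GGGCGG at 3 places and no other of the motifs.

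The rest of the oxysterol-binding family on the array allowed the paralogs of Osbpl6 to be set beside it. Of 5 measured members, Osbpl6 and Osbpl10 were past 2-fold, both towards D16, and the family median was -0.64. Osbpl10 read 15.5 in D16 and 3.3 in D351, a bound of 2.42-fold that was lost at the higher floor, where neither clone was above it. Osbpl3 read 46.7 and 29.9 (log2 ratio -0.64). Osbp2 read 104.0 and 71.9 (-0.53). Osbpl8 read 164.0 in D16 and 224.3 in D351 (0.45), and its second probe set read 12.8 and 16.8. Osbpl1a was dim in both clones. The family was thus not uniform: 4 of 5 members lay below 0 on the deposited scale and 2 of 5 with scaling to the hybridization controls, where the median was 0.030.

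**Figure D2:**
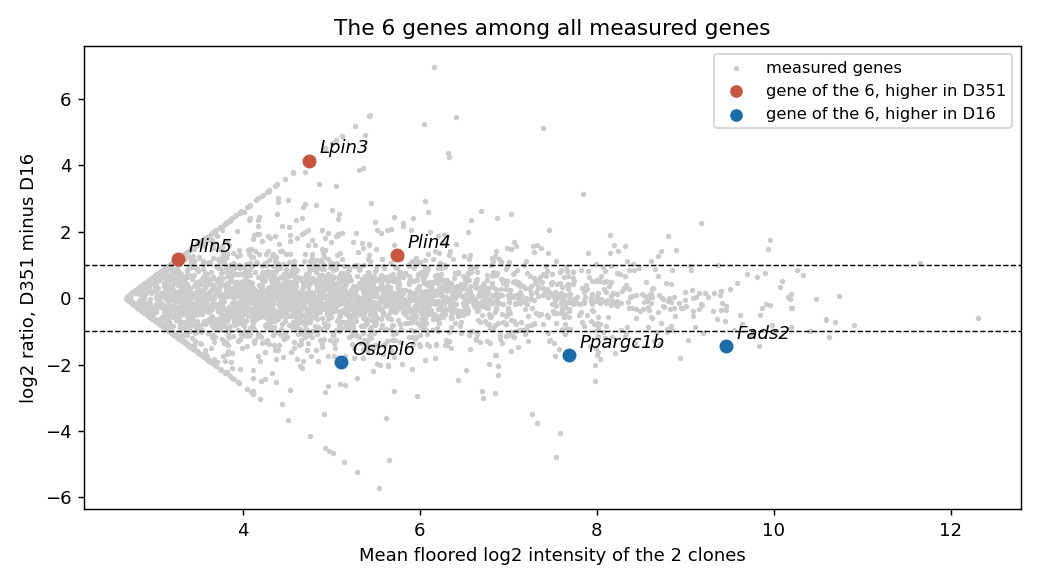
Log2 ratio of D351 over D16 (vertical axis) against the mean floored log2 intensity of both clones (horizontal axis) for 3934 measured genes in grey and the 6 genes in colour, red where higher in D351 and blue where higher in D16. The dashed lines are the 2-fold limits. Lpin3, at 4.14, lies on the upper edge formed by genes dim in D16, and Plin5, at 1.17, just beyond the limit among dim genes, while Ppargc1b and Fads2 lie among the brighter genes.

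How often genes pass 2-fold varied with brightness. In 4 equal groups of measured genes from dim to bright, the shares past 2-fold in either direction were 11.5%, 31.3%, 20.9% and 18.4%. Brightness was the mean floored log2 intensity, and a gene whose mean lay close to the floor could not pass 2-fold. The low share of the dimmest group thus follows at least in part from the floor. Plin5 fell in the dimmest group, Lpin3 and Osbpl6 in the third, and Plin4, Ppargc1b and Fads2 in the brightest. Ranks were taken only over the 3061 genes above the floor in both clones, which leaves out Lpin3 and Plin5. Towards D16, Osbpl6 was at rank 48, Ppargc1b at rank 77 and Fads2 at rank 112 of these genes. Towards D351, Plin4 was at rank 164. Other genes thus differed by as much as these 4 or more in the same direction.

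The genes with the most alike pair of intensities were found as the nearest in the plane of the 2 floored log2 values, a likeness over only 2 arrays. For Lpin3 they were Pabpc4l (4.1 in D16 and 118.2 in D351) and Mustn1 (5.4 and 119.8). For Plin4 they were Tcea2 (36.7 and 83.8) and 2900060B14Rik (35.5 and 73.6). For Ppargc1b they were Lrrc8d (323.9 and 111.6) and Plekha4 (337.4 and 101.2). For Fads2 the nearest, Cldn12 (1043.8 and 537.0) and Celf2 (850.5 and 411.3), lay 0.37 and 0.45 log2 away. For Osbpl6 they were Ung (67.1 and 17.2) and Ube2d-ps (65.1 and 19.5). Fbn2 and Heatr6, dim in D16 and at 14.4 in D351, could not be told from Plin5. Within 1 log2 lay 24 genes for Lpin3 and 28 for Fads2, but 685 for Plin5.

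The other genes of lipid metabolism were counted by the same rule. Over 8 lists of lipid metabolism, 105 of 389 listed genes were on the array and 78 were measured. With the 6 genes included, 7 of these 78 passed 2-fold towards D351 and 8 towards D16. Without the 6 genes, 72 were measured, and 9 of them passed 2-fold, 4 towards D351 and 5 towards D16. That is a share of 12.5%, against 20.5% of all measured genes. Leaving out genes that were chosen for their ratios lowers this share, so nothing is read from its distance to 20.5%. The median log2 ratio of the 72 genes was -0.12, against -0.022 over all measured genes. Both the balance and the share changed with scaling to the hybridization controls. Of 76 measured lipid genes outside the 6, 20 then passed 2-fold towards D351 and 4 towards D16, a share of 31.6%. Over all measured genes that share was 32.2%, with 28.2% towards D351 and 4.02% towards D16. A lean of the lists below towards D351 under that scaling is thus shared by the whole array. With that scaling the medians of the 8 lists, the 6 genes included, ran from 0.20 to 1.03, so the counts and signs below hold for the deposited scale. These counts describe the part of each pathway that this array covers.

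With Plin4 and Plin5, which were chosen for their ratios, 2 of 7 measured lipid droplet genes were past 2-fold. Of the lipid droplet genes outside the 6, none of 5 measured was past it, and their median was -0.31. Scaled to the hybridization controls, the count was again 0 of 5 and the median 0.36. Abhd6, a monoacylglycerol lipase and the brightest of them, read 30.9 in D16 and 24.9 in D351. Spast, a microtubule-severing protein with a form on droplets, read 19.3 and 15.4 with its brightest probe set and 11.4 and 16 with another. The probe sets of Spast thus disagreed in direction. Abhd5, the coactivator of triglyceride lipase, read 8.2 in D16 and 2.2 in D351, and Ldah, a droplet-associated hydrolase, read 12.1 and 10.7, so at least 1 value of each was no higher than the brightest negative control.

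In triglyceride and phospholipid synthesis, 12 genes besides Lpin3 were measured, of which 1 was past 2-fold in each direction, with a median of 0.049. Under the hybridization control scaling 5 of these 12 were past 2-fold towards D351 and none towards D16. Pcyt1b, an enzyme of phosphatidylcholine synthesis, was dim in D16 and read 16.5 in D351, a bound of 2.58-fold that was likewise lost at the higher floor. Plpp3, a lipid phosphate phosphatase, read 381.3 in D16 against 189.6 in D351, a 2.01-fold difference that came to 1.26-fold with scaling to the hybridization controls. Dgat1, which makes triglyceride from diacylglycerol, read 58.9 and 63.0 (log2 ratio 0.097).

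In fatty acid synthesis, elongation and desaturation, 6 genes besides Fads2 were measured, and 1 was past 2-fold in each direction. That became 4 of 6 towards D351 and 1 towards D16 with scaling to the hybridization controls. Elovl4, which elongates very long fatty acids, read 6.4 in D16 and 30.2 in D351, a bound of 4.72-fold that came to 1.46-fold at the higher floor. Hacd4, a dehydratase of the elongation cycle, read 33.0 in D16 against 9.8 in D351, a 3.37-fold difference of which the higher floor left a bound of 1.59-fold. Hacd1, of the same enzyme family, read 380.2 and 740.1 (log2 ratio 0.96). Members of the elongation cycle therefore lay on both sides on the deposited scale, and with scaling to the hybridization controls Hacd4 (-1.08) was still below 0. Acly, which supplies the acetyl groups for synthesis, was dim in both clones.

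None of 11 measured genes of sterol synthesis and its control was past 2-fold, and their median was -0.15. Mvd, a decarboxylase of the mevalonate pathway, read 397.1 in D16 and 721.0 in D351 (log2 ratio 0.86). Mbtps1, the protease that activates sterol regulatory proteins, read 308.0 and 267.6 (-0.20). With scaling to the hybridization controls 1 of 11 was past 2-fold, towards D351, and the median was 0.47.

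Among 14 measured lipid transfer genes besides Osbpl6, Osbpl10 was the only gene past 2-fold, and the median was -0.39. With scaling to the hybridization controls 5 of 15 were past 2-fold towards D351 and Osbpl10 alone towards D16. Stard7, a phosphatidylcholine carrier, read 154.7 in D16 and 83.0 in D351 (log2 ratio -0.90) with its brightest probe set, while another read 3.1 and 11.8. The probe sets of Stard7 thus disagreed in direction.

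In fatty acid oxidation, 2 of 12 measured genes were past 2-fold towards D351 and 1 towards D16, with a median of 0.19. These counts were 4 and 1 of 13 with scaling to the hybridization controls. Acad9, an acyl-CoA dehydrogenase family member that also assembles complex I, read 5.9 in D16 and 60.4 in D351 with its brightest probe set, a bound of 9.44-fold that came to 2.92-fold at the higher floor. Another probe set of Acad9 read 21.7 in D16 and 12.1 in D351, so the probe sets disagreed. Acad12, of the same family, read 18.8 and 48.2, 2.56-fold higher in D351. Hsd17b4, a peroxisomal enzyme, was at least 2.02-fold higher in D16, again a bound that the higher floor removed. Of 6 measured genes of fatty acid uptake and lipoprotein handling, Lrp8, a receptor for reelin and apolipoprotein E, was the only gene past 2-fold. It read 145.0 in D16 and 3.2 in D351, a bound of 22.7-fold towards D16 that came to 7.01-fold at the higher floor. With scaling to the hybridization controls 1 of 7 genes of this list was past 2-fold in each direction.

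**Figure D3:**
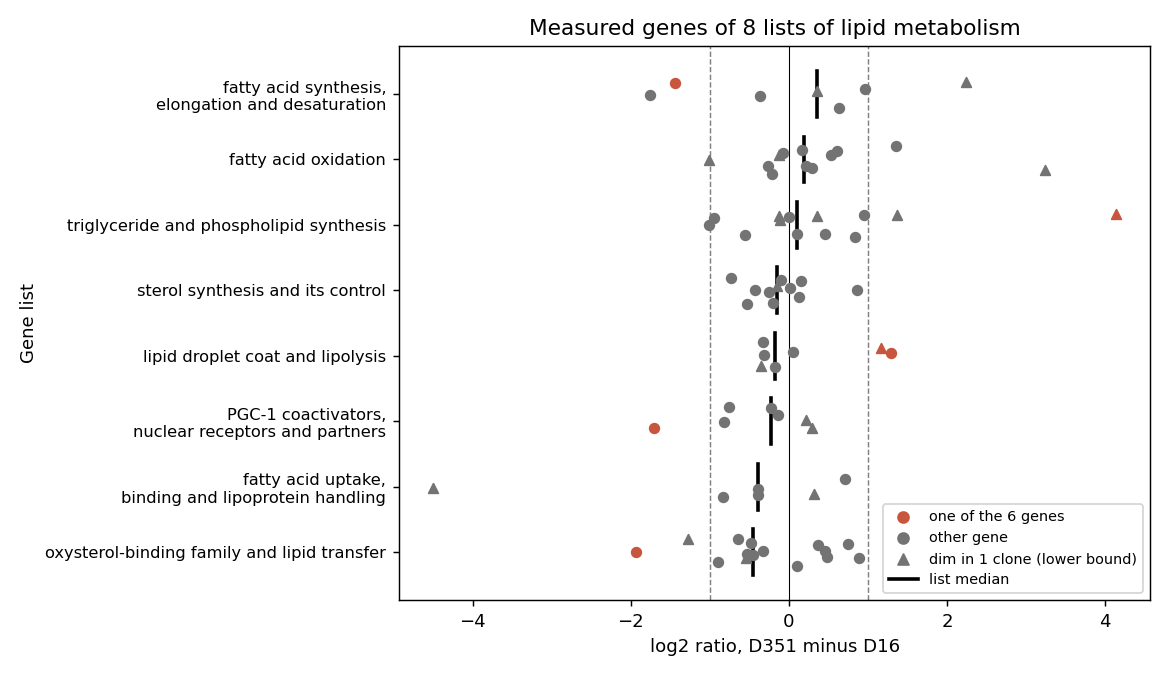
Log2 ratio of D351 over D16 for each measured gene of 8 lists of lipid metabolism, 1 row per list, with vertical jitter only to separate points. Red points are the 6 genes, grey points other genes, triangles lower bounds for genes dim in 1 clone, black bars list medians and dashed lines the 2-fold limits. On this deposited scale list medians run from -0.46 to 0.36, and most grey points lie within the 2-fold limits.

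Markers of cell types that such cultures could hold were set beside these values. Of 26 adipocyte markers 4 were on the array: Ucp1, the uncoupling protein of brown fat, was dim in both clones, Prdm16 read 1.3 in D16 and 7.4 in D351, Zfp423 read 3.0 and 9.8, and the other was Plin4. Prdm16 and Zfp423 stayed within the range of the negative controls in both clones. The 4 adipocyte markers summed to 39.6 in D16 and 101.1 in D351, most of it Plin4, and adipocyte markers as a whole are not covered. Of 16 markers of embryonic fibroblasts, the cells of the feeder layer, 4 were on the array, with a summed intensity of 628.7 in D16 and 2232.6 in D351. Most of that sum was Col5a1 by a marked probe set, at 543.2 in D16 and 1838.3 in D351. All 3 that were measured, Mfap5, Col5a1 and Loxl1, were past 2-fold towards D351, and Col5a2 was dim in both. Another probe set of Col5a1, without a mark, was dim in both clones, as was another of Mfap5. Of 16 smooth muscle markers 6 were on the array, with a sum of 124.9 in D16 and 1101.4 in D351, and 4 of 5 measured were past 2-fold towards D351. The fibroblast and smooth muscle sums thus lay on the same side as Lpin3, Plin4 and Plin5, as did the vessel progenitor sum given below. The adipocyte sum lay there mostly through Plin4 itself, so its side is not a separate observation. The part of the markers in the differences of Lpin3, Plin4 and Plin5 was not tested. Single markers of blood (Fcgr1) and liver (Serpina1a) were dim in both clones. Of 18 markers used for mesoangioblasts and vessel progenitors, Kdr, Acta2 and Flt1 were on the array. All 3 were dim in D16 and above the floor in D351, at 9.5, 15.4 and 87.6. Kdr stayed under the highest negative control, 11.2, and its bound was 1.48-fold. The sum of the 3 was 7.6 in D16 and 112.5 in D351. The cell type named in the labels could therefore be checked only in part.

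The order of the clones held for each gene under every setting that gave a value. Lpin3, Plin4 and Ppargc1b had a value and were past 2-fold in all 9 alternatives. Plin5 and Osbpl6 had a value in 8 each and were past 2-fold in all 8, and Fads2 was past 2-fold in 7 of 8. With 1 array a clone, this stability concerns the processing and not the cells.

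**Figure D4:**
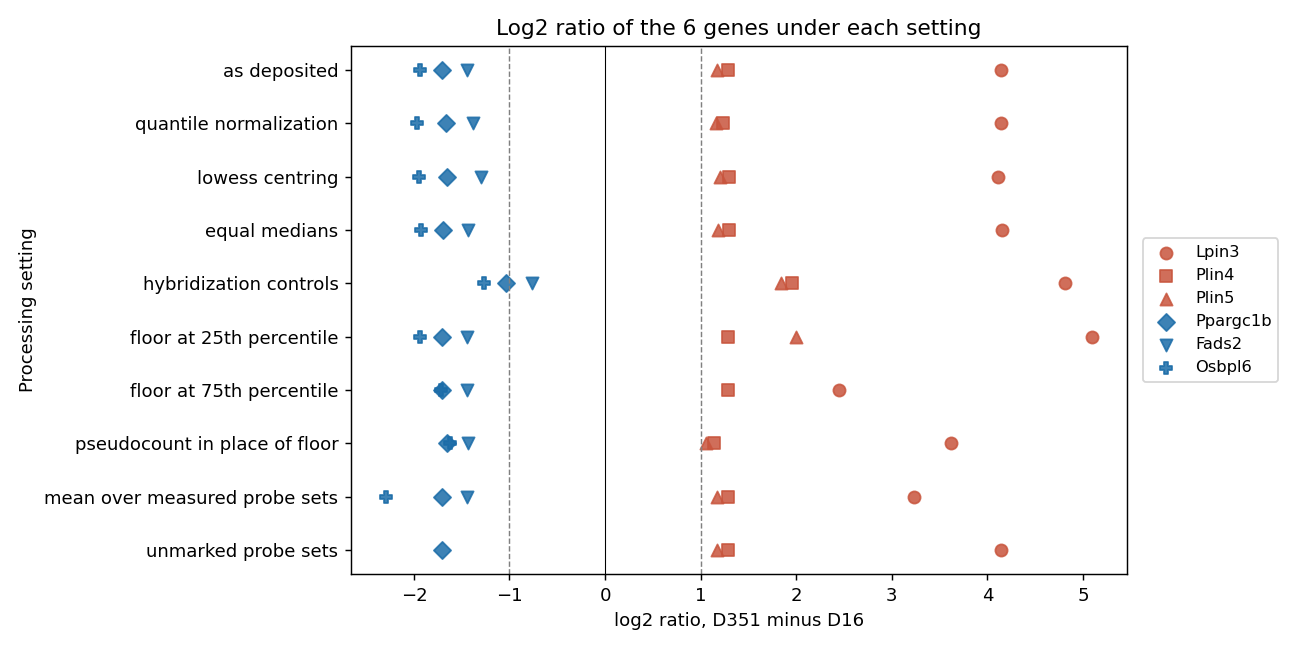
Log2 ratio of D351 over D16 for each of the 6 genes (marker shapes) on the deposited scale and under 9 alternative settings, with dashed lines at 2-fold. Red genes are higher in D351 and blue genes in D16. No gene crosses 0; Fads2 lies at -0.77, inside the 2-fold limit, with scaling to the hybridization controls, and Lpin3, whose value depends on the floor, lies between 2.45 and 5.10.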

How the data were processed

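Total RNA of clones D16 and D351 was measured on 1 array each, per the labels. The deposited table holds 1 linear intensity for each of 11934 probe sets; how the authors made these intensities, and with which software, is not given in the sources used here. The values were used as deposited. The 66 control probe sets were set aside. Gene names came from the platform annotation, where 7717 of 11868 probe sets had a single gene, 150 several and 4001 none here; 7677 of the 7717 identifiers were found in the RefSeq table of GRCm38.p6. A gene was represented by the probe set with the highest mean floored log2 intensity. Differences are described by a rule of 2-fold, with no test. Having only 2 arrays limits the precision.

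The 6 genes, the gene lists, the floor and the alternatives were chosen with earlier results of these data known. Alternatives were quantile normalization, lowess centring (span 0.3), equal medians, scaling to the hybridization controls, 2 other floors, a pseudocount of 6.4, means over probe sets, unmarked probe sets (without f, g, i, r, s or x in the identifier) and a 3-fold rule. Named genes were the 6 genes, their paralogs, up to 3 genes per list and direction past 2-fold or the 2 brightest where none was, and the 2 genes nearest to each of the 6; the few others named for their role were chosen after their values were seen. The calculation was tested on simulated data, with known changes well past 2-fold in bright probe sets. Known changes near 2-fold, lower bounds and scaling to the hybridization controls were not tried there. RefSeq promoters were searched for exact motifs. The software was Python 3.11.15 with pandas 2.3.3, numpy 2.4.6, statsmodels 0.14.6 and matplotlib 3.10.9.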

Additional observations from a re-analysis of the deposited data

How the results depend on the processing

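No paired analysis was possible because each clone has 1 array, and leaving out a replicate was not possible for the same reason. Quantile normalization, lowess centring, equal medians and the pseudocount kept 3 of the 6 genes past 2-fold towards D351 and 3 towards D16. Under scaling to the hybridization controls the log2 ratio of Fads2 was -0.77, and 2 genes were past 2-fold towards D16. The floor set the bounds: at 1.8 the log2 ratio of Lpin3 was 5.10 and that of Plin5 2.00, both from D16 values no higher than the brightest negative control and so not to be read as folds, and at 20.7 that of Lpin3 was 2.45 and Plin5 had no value. As the mean over its probe sets Lpin3 was at 3.23. With unmarked probe sets 1 gene was past 2-fold towards D16, since Fads2 and Osbpl6 then had no value. With the 3-fold rule 1 gene was past it towards D351 and 2 towards D16. Scaling to the hybridization controls made 1192 genes 2-fold higher in D351 and 170 in D16, against 404 and 403. The floor at 1.8 gave 761 and 815, the floor at 20.7 gave 185 and 195, and unmarked probe sets gave 265 and 254; the 3-fold rule gave 180 and 140. For the lists, 40 of 160 counts moved by over 1.5 times or between 0 and another number, mostly counts of 0 to 2 genes. These were counts of genes past 2-fold, or past 3-fold under the 3-fold rule. Of 72 medians, 3 moved by more than the SD between probe sets of a gene. That SD, 0.68, is close to the 0.67 that scaling to the hybridization controls adds, so this count can miss that scaling. Under it the list medians ran from 0.20 to 1.03, against -0.46 to 0.36 as deposited, so some changed sign. Low signal over background limits Plin5 most, and the D16 values of Lpin3.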

Other observations

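Enzymes of sphingolipid metabolism and lipid signalling, a list set by gene name families after the data had been seen, had 15 measured genes. Of these, 4 passed 2-fold towards D16 and 1 towards D351, with a median log2 ratio of -0.098. Over all measured genes, 10.2% passed towards D16 and 10.3% towards D351. Smpd3, a neutral sphingomyelinase, read 40.6 in D16 and 11.8 in D351. Pla2g7, the phospholipase that degrades platelet-activating factor, read 36.4 and 12.2. Dgkd, a diacylglycerol kinase that makes phosphatidic acid, the substrate of lipins, read 25 and 11.5, and Pla2g4d, a cytosolic phospholipase, read 17.6 and 6.2. With the floor at 20.7 none of these 4 was past 2-fold. On the other side, Cers6, a ceramide synthase, read 148.9 in D16 and 382.1 in D351, 2.57-fold higher with either floor. With scaling to the hybridization controls, Smpd3 alone was past 2-fold towards D16, while Cers6, Smpd2, Plcd4 and Sgpp1 were past it towards D351. The median was then 0.36. That scaling put 28.2% of all measured genes past 2-fold towards D351 and 4.02% towards D16, with a median of 0.59. The change of balance was therefore not particular to this list.

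The control probe sets for pyruvate carboxylase, which feeds citrate production for fatty acid synthesis, read 85.6 in D16 and 74.6 in D351 at the 3' end and 21.5 and 22.4 at the 5' end. The 2 other control probe sets of this transcript read 6.8 and 6.5 in D16 and 5.5 and 2.7 in D351, where both were under the floor.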
